A study of Homo sapiens with 16 samples.

Results

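The replication-dependent histone genes were described across 8 groups of NCI-H1944 cells, an established human lung adenocarcinoma line. Members were all genes of the deposited table with a symbol beginning with H1-, H2AC, H2BC, H3C or H4C followed by a number, annotated as protein coding, and with a mean of at least 0.5 counts per 1000000 counts of the library (CPM) over the 16 libraries. Among 60612 genes in the table, 70 protein-coding genes had such a symbol and 62 of them reached that level. The 62 members are 7 H1 genes, 15 H2A genes, 16 H2B genes, 13 H3 genes and 11 H4 genes. H2BC6 was just inside the limit at 0.512 CPM, and H1-6 was just outside it at 0.287 CPM. The symbol rule also took in H1-10, a linker histone that is expressed outside S phase, so the description as replication-dependent does not hold for every member. All 62 members passed the filter on low counts and were tested among 17950 genes.

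The 4 genotypes were SCR, labelled WT, a line labelled STING knockout, a line labelled MAVS knockout, and DKO, labelled as the combined STING/MAVS knockout. The titles of the single knockouts carry the abbreviation sg, and the labels do not say whether a line is a clone or a pool. STING relays the sensing of cytosolic DNA and MAVS the sensing of cytosolic RNA. Per the labels' protocols, each genotype received the MPS1 inhibitor BAY-1217389 (MPS1i) at 100 nM, or DMSO, for 48 h, and was cultured for a further 24 h after the drug was washed out. MPS1 is a kinase of the spindle assembly checkpoint. The design compares the response to this pulse between lines with and without STING and MAVS. Each of the 8 groups had 2 libraries, and the labels do not say that these came from separate cultures, so p-values measure only the spread between these libraries.

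Replication-dependent histone genes supply the histones that package newly made DNA. They are transcribed mainly in S phase, from a large gene cluster on chromosome 6 and a smaller one on chromosome 1, and many are present in near-identical copies. Their mRNAs normally end in a conserved stem-loop bound by SLBP in place of a poly(A) tail, and they are degraded when DNA synthesis stops. A minor share of transcripts runs past the stem-loop and is polyadenylated. The libraries here were enriched for poly(A) RNA per the labels' protocols, so the values cover histone RNA captured that way and not all of the histone mRNA in the cells.

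The stem-loop is shown because it is the feature that sets these mRNAs apart from other mRNAs. In the GENCODE 29 transcripts, 60 of the 62 members were found, and 25 of these hold a stem-loop of 16 bases inside the annotated transcript. Capitals mark the stem-loop.
H2AC13: ccaaaGGCTCTTTTCAGAGCCacctac
H4C2: ccaatGGCCCTTTTCAGGGCCgcccac
H2BC4: ccaaaGGCTCTTTTAAGAGCCacccag
H2AC6: ccaaaGGCTCTTTTCAGAGCCccccta
H3C6: ccaaaGGCTCTTCTCAGAGCCaaccac
The form printed for H2AC13 and H2AC6 was in 15 members, the H4C2 form in 4 H4 genes (H4C2, H4C5, H4C8 and H4C11), and the H2BC4 form in 4 (H2BC4, H2BC5, H2BC7 and H3C8). H3C6 had a form of its own. H2AC11 had the remaining form. For 8 members every such transcript ends within 100 bases after the stem-loop, and for 17 members at least 1 goes on further.

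Promoters were taken from RefSeq (GRCh38.p14), where 56 of the 62 members had an entry running from 250 bases before to 50 bases after the start. Here 1 member of each class is shown, because the classes differ in their motifs, as the 180 bases before the start on the strand of the gene. Capitals mark the letters searched for on both strands, which were the octamer ATTTGCAT (bound by POU2F1), the motif CCAAT, the TATA box as TATAAA, and the H1 box as AAACACA. No motif overlapped a different motif in these windows, while TATAAA matches on opposite strands overlapped in some, such as that of H3C7.
H1-5, chr6:27867589-27867768, minus strand: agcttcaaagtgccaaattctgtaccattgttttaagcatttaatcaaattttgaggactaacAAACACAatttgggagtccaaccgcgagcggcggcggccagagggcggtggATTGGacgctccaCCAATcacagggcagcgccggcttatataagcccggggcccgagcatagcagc
H2AC6, chr6:26123992-26124171, plus strand: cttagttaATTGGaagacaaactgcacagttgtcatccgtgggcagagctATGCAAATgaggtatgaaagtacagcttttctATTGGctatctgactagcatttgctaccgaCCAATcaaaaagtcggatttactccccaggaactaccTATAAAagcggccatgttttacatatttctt
H2BC8, chr6:26216689-26216868, minus strand: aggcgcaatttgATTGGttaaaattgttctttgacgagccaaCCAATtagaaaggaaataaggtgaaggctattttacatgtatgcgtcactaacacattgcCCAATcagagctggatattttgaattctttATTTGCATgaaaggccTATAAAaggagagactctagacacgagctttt
H3C2, chr6:26032100-26032279, minus strand: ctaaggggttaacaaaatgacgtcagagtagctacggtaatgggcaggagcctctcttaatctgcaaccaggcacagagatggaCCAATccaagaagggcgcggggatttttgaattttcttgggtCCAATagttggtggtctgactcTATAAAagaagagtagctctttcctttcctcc
H4C2, chr6:26027284-26027463, minus strand: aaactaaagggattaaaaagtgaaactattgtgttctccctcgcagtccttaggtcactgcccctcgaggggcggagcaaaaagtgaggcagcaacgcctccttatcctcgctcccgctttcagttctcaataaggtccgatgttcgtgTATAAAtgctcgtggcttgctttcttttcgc
The octamer was present in 13 of 16 H2B windows and 10 of 14 H2A windows, and in none of the H1, H3 or H4 windows, against 1.77% of the 35116 windows of all genes. For 7 of those 10 H2A genes the window overlaps that of a divergent H2B gene, so they share the same copy of the sequence in part. The TATAAA sequence was in 40 of 56 windows (11.5% of all genes), and CCAAT in 47 of 56 (34.6% of all genes). H4 genes stood apart in CCAAT, which was in 1 of 9 H4 windows and in all H2A, H2B and H3 windows. The H1 box was in 5 of 6 H1 windows and in 8 of 56 windows in all (5.64% of all genes). These matches describe letters in the window and not factor binding.

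Libraries held 19893784 to 49769938 counts, and a count of 0 allows up to 3 counts in such a library (counting error only). STING1 RNA was lower in the STING line (3.78 and 3.70 CPM under DMSO) and in DKO (4.90 and 4.83 CPM) than in SCR (8.25 and 8.30 CPM). MAVS RNA was not lower in the MAVS line (195 and 196 CPM) than in SCR (189 and 183 CPM). After MPS1i, STING1 was at 29.1 and 28.9 CPM in SCR, 17.2 and 19.9 CPM in the MAVS line, 5.99 and 5.89 CPM in the STING line and 4.04 and 4.21 CPM in DKO, and MAVS ran from 119 to 222 CPM over all libraries. A guide can disrupt a protein without lowering its RNA, so MAVS RNA does not check the label, and the lines are named here as labelled. Of 10 epithelial markers 6 reached 1 CPM, led by KRT8 and KRT18, while NKX2-1, SFTPB and KRT19 were at or near 0. Summed epithelial markers were 2549 to 2818 CPM under DMSO and 2912 to 3642 CPM after MPS1i. Immune markers summed to at most 3.07 CPM in any library and endothelial markers likewise to at most 3.07 CPM, with PTPRC and KDR at or near 0. Fibroblast markers summed to 26.3 to 41.4 CPM under DMSO and 35.2 to 48.3 CPM after MPS1i, from LUM, DCN and COL1A1, with PDGFRA and PDGFRB at or near 0. The part of these shifts in the histone results was not tested.

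After the MPS1i pulse, histone RNA was lower in all 4 genotypes. In SCR, 52 of the 62 members fell and 1 rose, where 24.0% of all tested genes fell and 26.0% rose. The count of members that fell was also 52 in the STING line (13.9% of tested genes fell), in the MAVS line (16.3%) and in DKO (8.22%). In the MAVS line 1 member rose (17.1% of tested genes rose), and no member rose in the STING line (15.5%) or in DKO (6.53%). The size of the fall differed more than its extent. The median log2 fold change of the members was -1.30 in SCR, -0.98 in the MAVS line, -0.84 in the STING line and -0.79 in DKO, where the median of all tested genes was 0.03, 0.02, 0.00 and 0.00. A fall of at least 2-fold was called for 42 members in SCR (2.99% of tested genes), 27 in the MAVS line (1.06%), 20 in the STING line (1.65%) and 1 in DKO (0.323%). Leaving out the first DKO MPS1i library lowered the count of members that fell in DKO to 40, and leaving out the first STING MPS1i library lowered that in the STING line to 43.

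**Figure D1:**
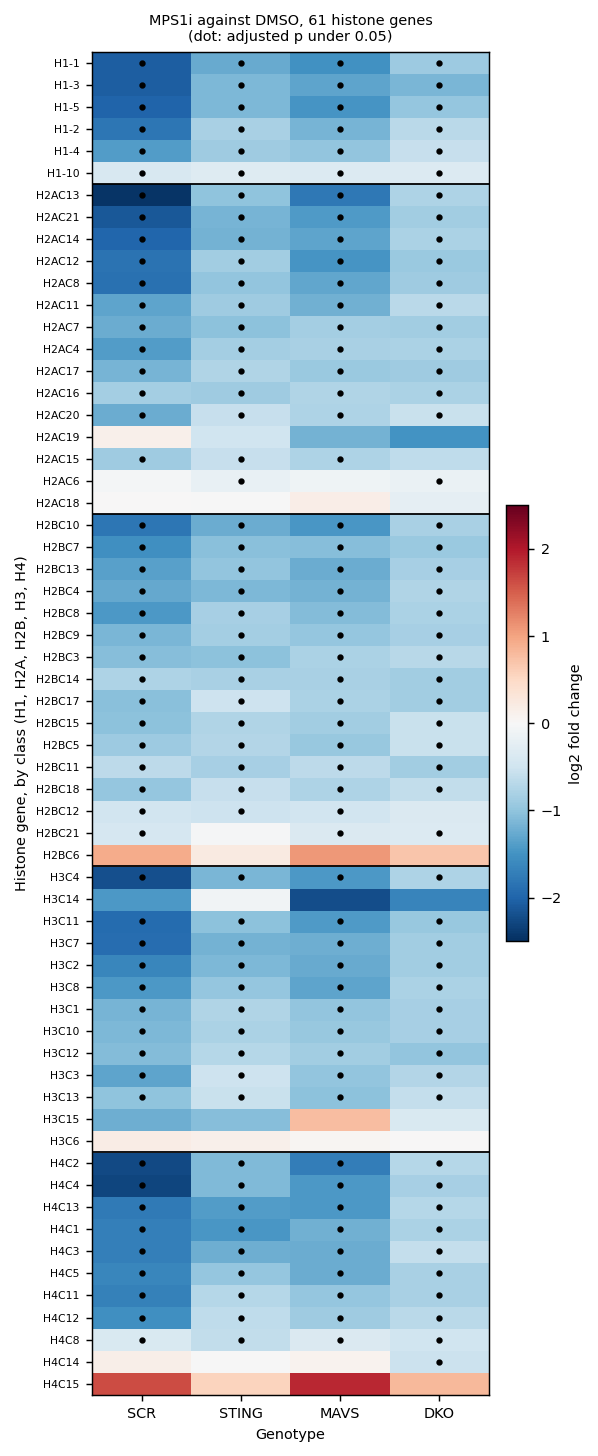
Log2 fold change of 61 members after MPS1i against DMSO (rows, by class) in the 4 genotypes (columns), with blue for lower, red for higher and a dot for an adjusted p under 0.05. Most rows are blue across all 4 columns, deepest in SCR, and 7 of the members shown did not fall in any genotype.

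With all libraries in the fit, the same 49 members fell in all 4 genotypes. Some of them lost a call when a library was left out. H2AC4 lost its call in DKO with each DKO library left out in turn (log2 fold change from -0.88 to -0.70). It likewise lost its call in the MAVS line with each library of that line left out (-0.86 to -0.75). The counts that follow use all libraries. Of these 49, 43 had their lowest log2 fold change in SCR and 31 their least negative in DKO. The order SCR, MAVS line, STING line, DKO was followed by 27. These counts were not made over other genes, and fewer of all tested genes fell in DKO (8.22%) than in SCR (24.0%). Falls of at least 2-fold were also fewer over all tested genes in DKO (0.323%) than in SCR (2.99%). Each genotype has its own DMSO and MPS1i libraries in these comparisons. Summed over the 62 members, histone RNA was 3801 and 3315 CPM in SCR DMSO and 1682 and 1618 CPM in SCR MPS1i, a 2.16-fold lower mean. In the MAVS line it was 3300 and 3228 CPM under DMSO and 1767 and 1852 CPM after MPS1i (1.80-fold), and in the STING line 2949 and 2994 CPM against 1703 and 1865 CPM (1.67-fold). In DKO it was 3132 and 2896 CPM under DMSO and 1858 and 1883 CPM after MPS1i (1.61-fold). In each genotype both libraries after MPS1i were below both under DMSO. The same held singly for 54, 53, 55 and 55 of the 62 members in SCR, the STING line, the MAVS line and DKO. Over all tested genes the shares were 35.1%, 31.1%, 31.9% and 24.8%, so groups apart are common, here and below. Across genotypes, the MPS1i libraries ran from 1618 to 1883 CPM and the DMSO libraries from 2896 to 3801 CPM. The upper end under DMSO is the first SCR library alone, and the other DMSO libraries ran from 2896 to 3315 CPM. As share of all scaled counts, histone RNA went from 0.356% to 0.165% in SCR. These are bulk libraries enriched for poly(A) RNA. Fewer cells in S phase, less histone RNA per cell and a smaller polyadenylated share of it cannot be told apart.

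**Figure D2:**
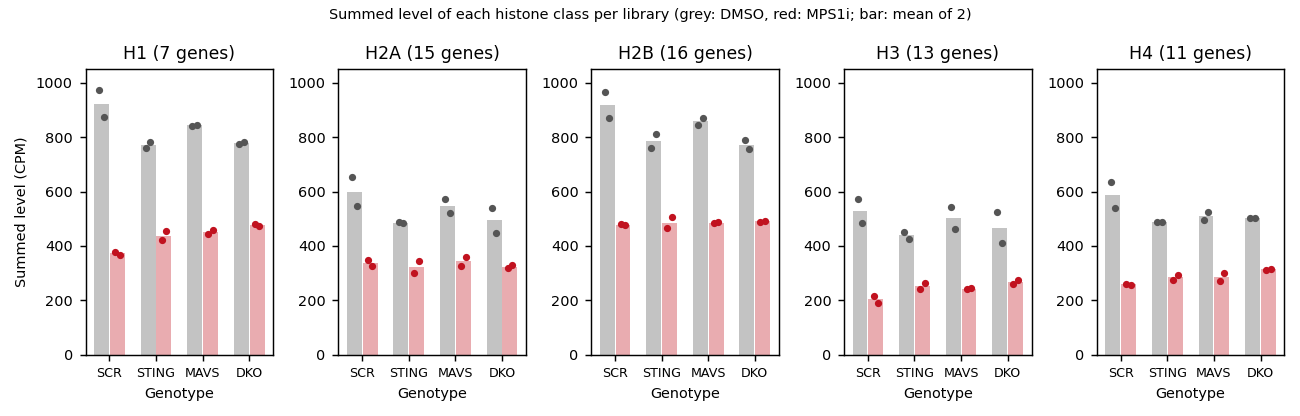
Summed CPM of the members of each histone class in each of the 16 libraries (grey for DMSO, red for MPS1i, a bar for the mean of 2 libraries). In all 5 classes and all 4 genotypes the red points lie under the grey points, and the gap is widest in SCR.

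By class median, the linker histones (H1) fell most in SCR (-1.81), and least in DKO (-0.66). H1 binds the DNA between nucleosomes and compacts chromatin. The 5 H1 genes of the chromosome 6 cluster (H1-1 to H1-5) fell in all 4 genotypes, and their summed level was 821 and 727 CPM in SCR DMSO and 217 and 209 CPM in SCR MPS1i, a 3.63-fold lower mean. The same sum was 2.42-fold lower in the MAVS line, 1.98-fold in the STING line and 1.78-fold in DKO. H1-2 (chr6:26055740-26056470, minus strand) had the highest level per kilobase of annotated span among the 37 members with a span under 1000 bases, at 261 CPM per kb, followed by H1-5 at 219 CPM per kb. H1-2 had 321 and 275 CPM in SCR DMSO and 88.0 and 82.3 CPM in SCR MPS1i, and 233 and 234 CPM in DKO DMSO against 151 and 143 CPM in DKO MPS1i. The treated libraries of SCR were thus the lowest and the groups did not overlap. Its log2 fold change was -1.81 ± 0.06 in SCR (adjusted p = 6.7e-19), -1.15 ± 0.06 in the MAVS line, -0.82 ± 0.06 in the STING line and -0.66 ± 0.06 in DKO (adjusted p = 4.7e-09).

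H1-5 (chr6:27866792-27867588, minus strand) had 276 and 249 CPM in SCR DMSO and 65.6 and 64.9 CPM in SCR MPS1i. In DKO it had 257 and 273 CPM under DMSO, within the range of SCR, and 138 and 132 CPM after MPS1i, above the treated libraries of every other genotype. Its log2 fold change was -2.01 ± 0.06 in SCR (adjusted p = 9e-20), -1.47 in the MAVS line, -1.12 in the STING line and -0.97 in DKO (adjusted p = 1.2e-11). H1-1 went from 37.3 and 36.9 CPM to 9.14 and 8.72 CPM in SCR, and from 33.3 and 39.0 CPM to 20.5 and 17.7 CPM in DKO. H1-3 went from 99.3 and 89.1 CPM to 23.4 and 22.2 CPM in SCR, and from 75.4 and 78.4 CPM to 35.2 and 34.2 CPM in DKO. For both genes the groups were apart in each genotype, with log2 fold changes of -2.06 and -2.05 in SCR. H1-4 fell by 1.39 on the log2 scale in SCR and 0.59 in DKO, the smallest falls of the 5 there, while in the STING line it fell by 0.89 and H1-2 by 0.82.

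H1-10, a linker histone with its own gene on chromosome 3, fell by 0.41 in SCR, 0.31 in the STING line, 0.34 in the MAVS line and 0.33 in DKO (log2, each ± 0.08). Without the first DKO MPS1i library its adjusted p in DKO was 0.25, and in the STING line the call was lost without the second DMSO library (0.064) or the first MPS1i library (0.075).

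Core histones H2A and H2B pair as dimers in the nucleosome, and many of their genes are divergent neighbours. Of 15 H2A genes, 12 fell in SCR, the MAVS line and DKO and 13 in the STING line, with class medians of -1.24, -0.93, -0.79 and -0.88. H2AC13 (chr6:27808199-27808701, plus strand) had the largest fall on average over the 4 genotypes. It had 49.8 and 37.6 CPM in SCR DMSO and 8.44 and 7.70 CPM in SCR MPS1i, and 44.3 and 35.6 CPM in DKO DMSO against 22.8 and 24.2 CPM in DKO MPS1i. Its log2 fold change was -2.45 ± 0.16 in SCR (adjusted p = 6.3e-08), -1.78 in the MAVS line, -1.01 in the STING line and -0.76 in DKO (adjusted p = 0.0045). The DKO call was lost without the first DKO MPS1i library (adjusted p = 0.069). H2AC13 shares 62.3% of its 50-base words with H2AC14, and the 2 genes summed fell by 2.26, 1.07, 1.60 and 0.77 on the log2 scale in SCR, the STING line, the MAVS line and DKO.

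H2AC21, in the chromosome 1 cluster, had 44.0 and 35.9 CPM in SCR DMSO and 9.11 and 9.27 CPM in SCR MPS1i, with a log2 fold change of -2.12. In DKO it had 27.5 and 27.4 CPM under DMSO and 15.5 and 14.6 CPM after MPS1i, a change of -0.86. Both genotypes showed groups apart, with a lower DMSO level and a higher treated level in DKO than in SCR. H2AC6, the H2A gene with the highest CPM, moved little: it had 112 and 104 CPM in SCR DMSO and 106 and 104 CPM in SCR MPS1i. Its log2 fold change was -0.04 in SCR (adjusted p = 0.56), -0.10 in the MAVS line (0.14), -0.18 in the STING line (0.016) and -0.17 in DKO (0.04). The call in the STING line was lost without its first DMSO library (adjusted p = 0.2) or its first MPS1i library (0.13), and that in DKO without its first DMSO library (0.13), its first MPS1i library (0.11) or its second (0.26). The H2AC6 call in DKO was also lost with library totals as scaling (adjusted p = 0.07) and with DESeq2 (0.054). With the DKO groups fitted alone its adjusted p was 0.15. H2AC6 is annotated over 14972 bases, and its transcripts with the stem-loop printed above go on past it. H2AC18 and H2AC19 did not pass in any genotype, and H2AC15 passed in all but DKO (-0.64, adjusted p = 0.051). The H2AC15 call in the STING line was lost with library totals as scaling (adjusted p = 0.056), with DESeq2 (0.054), and without its first DMSO (0.12), second DMSO (0.19) or first MPS1i library (0.31). That in the MAVS line was lost without its first DMSO library (adjusted p = 0.12) or its second MPS1i library (0.054).

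Among 16 H2B genes, 15 fell in SCR and the MAVS line and 14 in the STING line and DKO, with class medians of -1.03, -0.84, -0.82 and -0.77. H2BC4 (chr6:26114873-26123926, minus strand), the divergent neighbour of H2AC6, had 195 and 185 CPM in SCR DMSO and 76.1 and 80.2 CPM in SCR MPS1i. In the STING line it went from 173 and 189 CPM to 81.9 and 85.3 CPM, and in the MAVS line from 166 and 179 CPM to 78.7 and 73.8 CPM. In DKO it went from 177 and 185 CPM to 107 and 107 CPM, so that DKO alone kept a treated level above 100 CPM. Its log2 fold changes were -1.28, -1.11, -1.17 and -0.76 in SCR, the STING line, the MAVS line and DKO, with an adjusted p of 2.2e-16 in SCR and 2e-10 in DKO. The H2AC6 and H2BC4 promoter windows overlap, and within this pair H2BC4 fell in SCR while H2AC6 did not pass.

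H2BC21, on chromosome 1, had 151 and 147 CPM in SCR DMSO and 113 and 110 CPM in SCR MPS1i, a log2 fold change of -0.42 ± 0.05 (adjusted p = 1.4e-07). It fell by 0.36 in the MAVS line and by 0.35 in DKO. In the STING line it had 118 and 118 CPM under DMSO and 109 and 121 CPM after MPS1i, overlapping groups, and did not pass (-0.03, adjusted p = 0.7). H2BC12 passed in all but DKO (-0.36, adjusted p = 0.1), and each of the 3 calls rested on few libraries. It was lost in SCR without the first DMSO (adjusted p = 0.058) or second MPS1i library (0.072), and in the STING line without the second DMSO (0.088) or first MPS1i library (0.091). In the MAVS line it was lost without the first DMSO (adjusted p = 0.11), first MPS1i (0.062) or second MPS1i library (0.083). H2BC6 lay between 0.152 and 0.820 CPM in all 16 libraries, near the level of few counts, and passed in none.

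Of 13 H3 genes, 10 fell in each genotype, with class medians of -1.32 in SCR, -1.02 in the MAVS line, -0.79 in the STING line and -0.83 in DKO. H3 carries many of the tail modifications by which chromatin states are defined. H3C2 (chr6:26031589-26032099, minus strand) had 85.6 and 69.8 CPM in SCR DMSO and 26.4 and 24.0 CPM in SCR MPS1i, and 102 and 82.0 CPM in DKO DMSO against 50.3 and 49.7 CPM in DKO MPS1i. Its log2 fold change was -1.63 ± 0.11 in SCR (adjusted p = 1.5e-08), -1.25 in the MAVS line, -1.13 in the STING line and -0.88 in DKO (adjusted p = 6e-05). Treated and DMSO libraries were apart in both genotypes, and the treated DKO libraries were the highest of the treated ones. H3C3 (chr6:26045384-26045869, plus strand) had 86.6 and 72.4 CPM in SCR DMSO and 35.1 and 28.9 CPM in SCR MPS1i, and its log2 fold change was -1.32 in SCR and -0.98 in the MAVS line. In the STING line H3C3 went from 66.7 and 63.6 CPM to 44.7 and 46.1 CPM (-0.52, adjusted p = 0.024), and in DKO from 74.8 and 60.7 CPM to 39.1 and 42.1 CPM (-0.74, adjusted p = 0.0073). Both falls show groups apart, a separation that 31.1% of all tested genes showed in the STING line and 24.8% in DKO. Both H3C3 falls depend on few libraries. Leaving out any of the 4 STING line libraries gave an adjusted p from 0.069 to 0.11, and leaving out the first DKO MPS1i library gave 0.081. H3C6 did not pass in any genotype, with log2 fold changes between 0.02 and 0.19.

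H4 is the most conserved core histone, and most of its genes encode the same protein. Of 11 genes, 9 fell in SCR, the STING line and the MAVS line and 10 in DKO, with class medians of -1.68, -0.97, -1.20 and -0.70. H4C2 (chr6:26025952-26027283, minus strand) had 74.4 and 61.8 CPM in SCR DMSO and 15.1 and 13.4 CPM in SCR MPS1i. In the STING line it went from 64.2 and 66.9 CPM to 28.9 and 31.8 CPM, in the MAVS line from 57.4 and 60.9 CPM to 16.3 and 19.3 CPM, and in DKO from 66.0 and 67.2 CPM to 40.0 and 40.8 CPM. The DMSO levels lay close together in the 4 genotypes, while the treated levels were ordered SCR, MAVS line, STING line, DKO, from low to high, without overlap. The log2 fold changes were -2.26 ± 0.09 (adjusted p = 7.4e-16), -1.73, -1.11 and -0.72 ± 0.08 (adjusted p = 1.4e-06) in that order. H4C4 behaved likewise, with 69.1 and 58.5 CPM in SCR DMSO, 12.5 and 13.6 CPM in SCR MPS1i, and 35.9 and 35.7 CPM in DKO MPS1i. H4C13 had 9.65 and 10.1 CPM in SCR MPS1i, 10.5 and 10.9 CPM in the treated STING line, and 8.61 and 10.8 CPM in the treated MAVS line, against 19.9 and 18.5 CPM in DKO MPS1i, which stood apart from the other 3.

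H4C12, with 207 CPM per kb, had the highest level per length in the class. It had 136 and 118 CPM in SCR DMSO and 44.1 and 43.5 CPM in SCR MPS1i (log2 fold change -1.54 ± 0.14, adjusted p = 1.1e-05), and its falls in the MAVS line (-0.88), the STING line (-0.63) and DKO (-0.67) were smaller. Its call in the STING line was lost without its first DMSO library (adjusted p = 0.064) or its first MPS1i library (0.061), that in DKO without its second DMSO library (0.1), first MPS1i library (0.098) or second (0.06), and that in the MAVS line when its 4 libraries were fitted alone (0.089). All 50-base words of H4C12 also occur in H4C11. Summed, the 2 genes fell in all 4 genotypes, by 1.59 in SCR (adjusted p = 6.8e-10), 0.66 in the STING line, 0.91 in the MAVS line and 0.73 in DKO (4.1e-05).

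Near-identical copies limit what single genes show. Of the 60 members found in GENCODE 29, 40 had at least 90% of their 50-base words in no other gene, and 36 of these 40 fell in each genotype. Under 50% of words were unique in 15 members, of which 9 fell in each genotype. H3C14 and H3C15, an inverted pair on chromosome 1, share all of their words. H3C14 took between 1.55% and 99.3% of the counts of the pair in the different libraries, and its share was the same as that of H3C15 in both STING MPS1i libraries, so neither gene can be read alone, and neither passed. Summed, the pair had 136 and 119 CPM in SCR DMSO and 55.8 and 47.3 CPM in SCR MPS1i. The sum fell in SCR (-1.31 ± 0.16, adjusted p = 1e-04), the STING line (-0.66, 0.016), the MAVS line (-0.94, 0.0017) and DKO (-0.77, 0.014). The failure of H3C14 and H3C15 to pass singly was thus not seen in their sum.

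The other chromosome 1 pairs differed. H2AC18 held 68.1% to 92.2% of the counts of the pair H2AC18 and H2AC19, and their sum did not pass in any genotype (0.03, -0.10, -0.10 and -0.43 in SCR, the STING line, the MAVS line and DKO). H4C14 alone had 68.3 and 63.1 CPM in SCR DMSO and 73.1 and 72.3 CPM in SCR MPS1i (0.14, adjusted p = 0.051), while in DKO it fell from 48.6 and 54.1 CPM to 35.8 and 35.1 CPM (-0.54 ± 0.07, adjusted p = 1.9e-06). It is the H4 gene that moved in opposite directions by value in SCR and DKO. Its near copy H4C15 lay between 0.139 and 16.4 CPM and passed in none. Summed with H4C15, the pair had 71.9 and 69.7 CPM in SCR DMSO and 89.6 and 87.0 CPM in SCR MPS1i. The sum rose in SCR (0.32 ± 0.05, adjusted p = 1.6e-05) and in the MAVS line (0.22, 0.0029), did not pass in the STING line (0.04, 0.68), and fell in DKO (-0.44, 5e-06). With the pairs that share many of their 50-base words summed, 50 of 56 units fell in each genotype. Not all of these pairs are near-identical. H2AC13 and H2AC14 share 62.3% and 83.7% of their words, and H3C12 and H2AC17, of different classes, 40.9% and 86.3%.

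**Figure D3:**
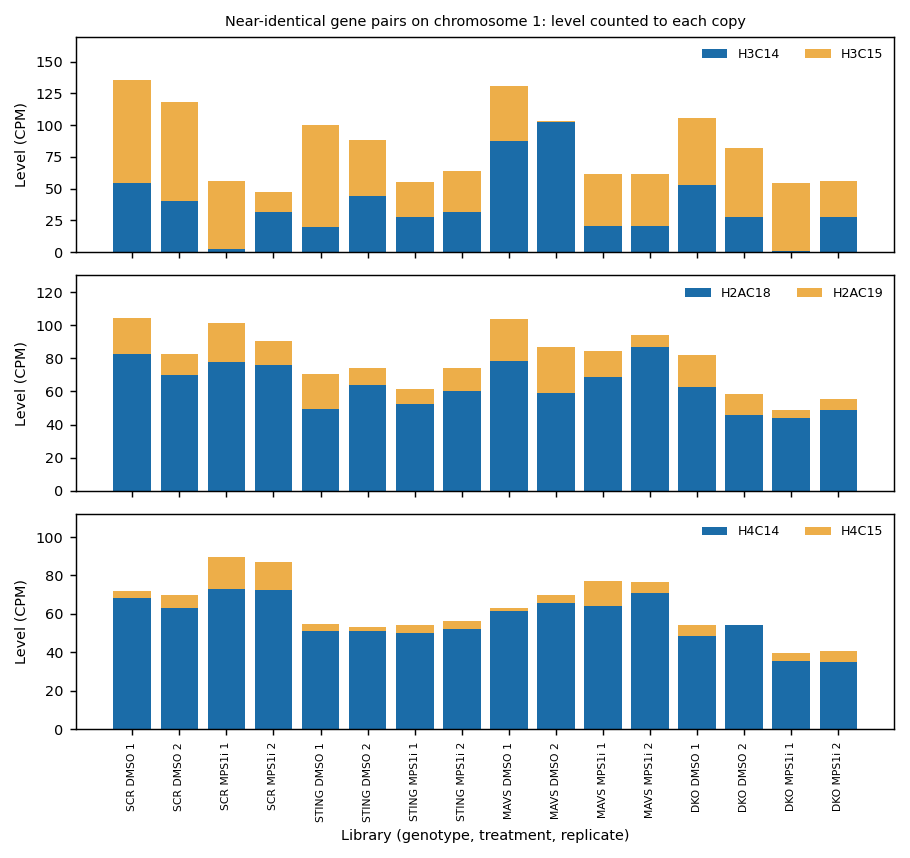
Stacked CPM of 3 near-identical pairs (H3C14 and H3C15, H2AC18 and H2AC19, H4C14 and H4C15) in each library. The split within H3C14 and H3C15 changes from library to library while the stacked height is lower in all MPS1i libraries, whereas the H4C14 and H4C15 stack is higher after MPS1i in SCR and lower in DKO.

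By median, the fall was larger among members on chromosome 6 and among members with a short annotation. Of 49 members on chromosome 6 (chr6:26017032-27893891), 46, 47, 46 and 45 fell in SCR, the STING line, the MAVS line and DKO, with medians of -1.39, -0.89, -1.06 and -0.80. Of 11 members on chromosome 1 (chr1:149782689-149887965), 5, 4, 5 and 6 fell, with medians of -0.98, -0.50, -0.78 and -0.56. The chromosome 1 members hold 3 near-identical pairs, which bear on that count. Among 37 members annotated under 1000 bases, 35 fell in SCR and the median was -1.63, and among 25 annotated as 1000 bases or more, 17 fell in SCR and the median was -1.02. In DKO the same medians were -0.81 and -0.62. The 8 members for which every stem-loop transcript ends within 100 bases of it had a median of -1.52 in SCR (6 fell), the 17 with at least 1 transcript that goes on further -1.14 (12 fell), and the 35 with no stem-loop in the annotated transcript -1.39 (32 fell). These are descriptions of the members, and the differences between such groups were not tested.

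Under DMSO, the members called against SCR with all libraries were lower than in SCR. Against SCR DMSO, 17 members were lower in the STING line (5.47% of tested genes were lower), 3 in the MAVS line (2.57%) and 23 in DKO (15.3%), and none was higher (4.70%, 3.98% and 15.8% of tested genes). In DKO, H3C2 was called higher without the first SCR DMSO library (0.40, adjusted p = 0.0048), without the second DKO DMSO library (0.39, 0.0023) and without the filter on low counts (0.23, 0.0018), and H4C5 without the first SCR DMSO library (0.32, 0.021). The median log2 differences were -0.26, -0.14 and -0.23. Fewer members were lower in DKO when the first SCR DMSO library was left out. The 3 members lower in the MAVS line were H4C13 (-0.35), H2AC21 (-0.29) and H1-2 (-0.19). None of the 3 passed without the first SCR DMSO library, which had the highest histone sum of all libraries, or without the first MAVS DMSO library, and 7 members passed without the second SCR DMSO library. Without the first SCR DMSO library the count in the STING line was 7, and without the first STING DMSO library it was 8.

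After MPS1i, more members were higher than lower in each line compared with SCR. Against SCR MPS1i, 21 members were higher and 6 lower in the STING line (15.8% and 17.3% of tested genes), 9 higher and 0 lower in the MAVS line (7.46% and 8.47%), and 30 higher and 9 lower in DKO (22.6% and 22.4%). Of the members higher in DKO, H2AC13 (1.54 ± 0.17, adjusted p = 1e-05) and H4C2 (1.50 ± 0.09, adjusted p = 3.8e-12) had the largest log2 differences from SCR. They were followed by H4C4 (1.45), H1-1 (1.11), H4C3 (1.09) and H1-5 (1.05). The near copies H4C15 and H2AC19 were lower in DKO, with means of 15.6 and 19.1 CPM in SCR MPS1i and 4.61 and 5.74 CPM in DKO MPS1i. On the other side, H4C14 was lower in DKO than in SCR by 1.04 ± 0.07, H2AC6 by 0.45 and H2BC21 by 0.43. The MAVS line count was 4 without the second SCR MPS1i library, and 5 without the first or without the second MAVS MPS1i library.

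The dependence of the MPS1i effect on genotype was tested as the difference between the effect in a knockout line and that in SCR. A positive value here means a smaller fall than in SCR. In DKO the effect was above that in SCR for 33 members and below it for 1 (13.5% and 14.5% of tested genes), in the STING line for 26 and 1 (9.97% and 9.55%), and in the MAVS line for 13 and 0 (2.92% and 4.52%). The medians of the members were 0.55, 0.42 and 0.27, with all tested genes at -0.01, -0.01 and 0.00. The 3 comparisons share the SCR libraries. H4C2 had differences of 1.54 ± 0.12 in DKO (adjusted p = 9.1e-10), 1.15 ± 0.12 in the STING line (3.8e-07) and 0.54 ± 0.13 in the MAVS line (0.0079). H1-2 had 1.15 ± 0.08 in DKO (2.5e-11), 0.99 ± 0.08 in the STING line (1.9e-09) and 0.66 ± 0.08 in the MAVS line (3e-06). H1-5 had 1.04, 0.89 and 0.54, and H2AC21 had 1.26, 0.96 and 0.71, in the same order.

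**Figure D4:**
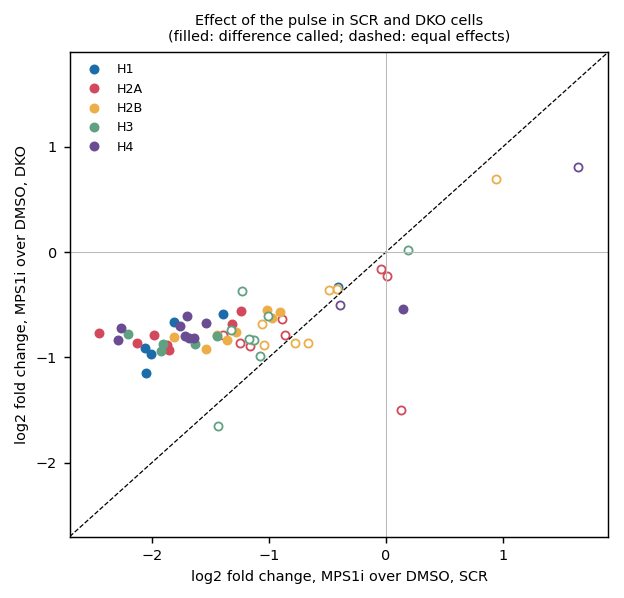
Log2 fold change after MPS1i in SCR (x axis) and in DKO (y axis) for 61 members, filled where the difference between them passed the test, with a dashed line for equal change. Most filled points lie above the dashed line, a smaller fall in DKO, and H4C14 lies below it.

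The 13 members that passed in the MAVS line (H1-1 to H1-5, H2AC8, H2AC14, H2AC21, H2BC8, H3C4, H3C7, H4C2 and H4C4) also passed in the STING line and DKO. All 5 H1 genes of the chromosome 6 cluster are among them. Because the 3 comparisons share the SCR libraries, passing in several lines is not independent, and this overlap was not counted over other genes. H1-3 had differences of 0.90 in DKO, 0.93 in the STING line and 0.73 in the MAVS line, and H1-1 had 1.15, 0.79 and 0.54. H4C4 had 1.45, 1.18 and 0.84. H4C13 passed in DKO alone of the 3 lines (1.05 ± 0.12, adjusted p = 2.4e-07), with 0.36 in the STING line (0.057) and 0.33 in the MAVS line (0.14). H2BC4 likewise passed in DKO (0.52) and not in the STING line (0.17) or MAVS line (0.11), and H2BC21 passed in the STING line (0.39). Below SCR stood H4C14 in DKO (-0.68 ± 0.09, adjusted p = 1.6e-06). The MAVS line count was the least stable. It was 6 without the second SCR MPS1i library, 7 without the first SCR DMSO library, and 8 without the first MAVS DMSO library or the second MAVS MPS1i library. The value of H4C2 in the MAVS line missed the threshold without any of these 4 libraries (adjusted p 0.054 to 0.088), and that of H1-1 missed it without the second SCR MPS1i, first MAVS DMSO or first MAVS MPS1i library (0.051 to 0.071). The counts in the STING line and DKO were at least 18 and 28 with any library left out, the lowest in the STING line being without the second SCR MPS1i library.

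Genes for making and processing histone RNA moved less than the histone genes and in both directions. Of 23 genes for histone gene transcription and 3' end processing, 6 fell and 10 rose in SCR (24.0% and 26.0% of all tested genes). The counts were 0 and 6 in the STING line (13.9% and 15.5%) and 2 and 9 in the MAVS line (16.3% and 17.1%). In DKO they were 2 and 1 (8.22% and 6.53%). The medians lay between 0.02 and 0.10. CCNE2, a cyclin E that activates CDK2 at the start of S phase, rose in SCR (1.18), the MAVS line (0.71) and the STING line (0.50) and did not pass in DKO (0.07). CASP8AP2, a histone locus body protein, rose in SCR (0.46) and the MAVS line (0.30). TUT7, which adds uridines to histone mRNA during decay, rose in SCR (0.42), the MAVS line (0.35) and the STING line (0.27). NCBP1, a cap-binding subunit, fell in SCR (-0.33) and the MAVS line (-0.26). SLBP, the stem-loop binding protein, was chosen after its values were seen. It had 41.5 and 42.6 CPM in SCR DMSO and 51.4 and 57.0 CPM in SCR MPS1i, and rose in SCR (0.37, adjusted p = 4.4e-05) and the MAVS line (0.27, 0.0029).

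**Figure D5:**
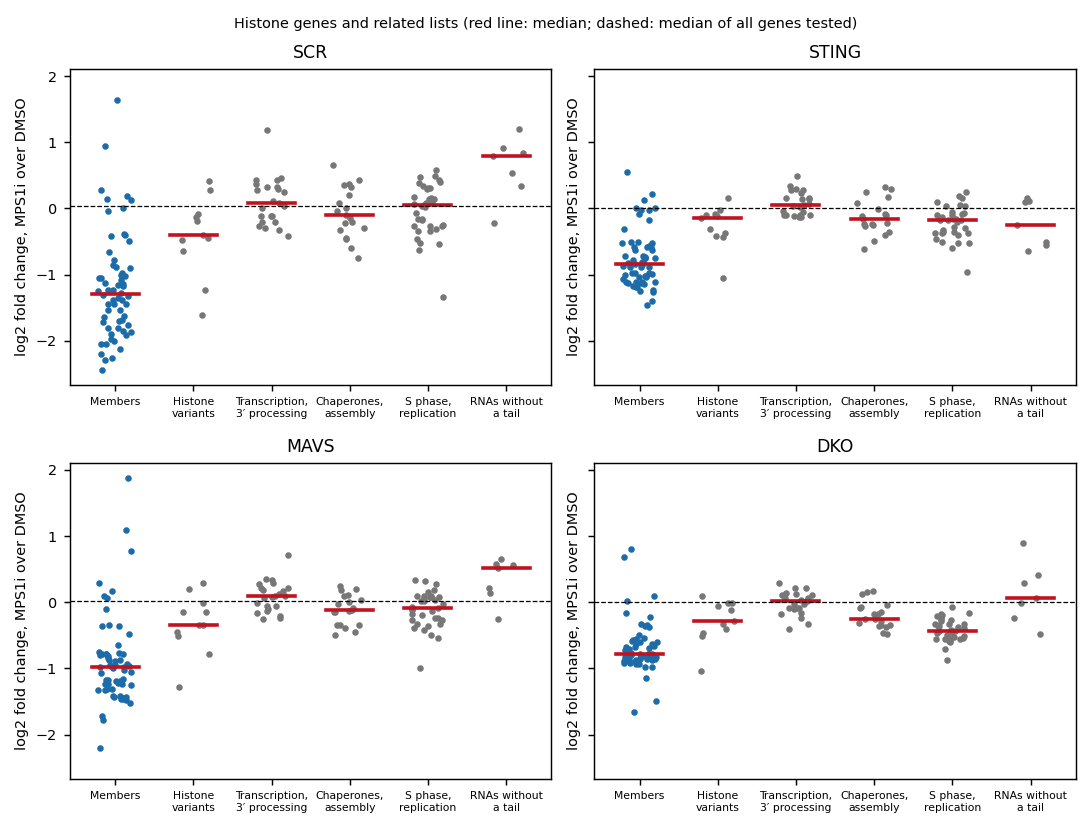
Log2 fold changes after MPS1i in the 4 genotypes for the histone members and for 5 lists of related genes, each point a gene, with a red bar for the median of the list and a dashed line for the median of all tested genes. The median of the members is the lowest in each genotype, and the S phase list is centred near 0 in SCR and at -0.43 in DKO.

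S phase genes took another course across genotypes. Of 36 genes of S phase and DNA replication, 12 fell and 12 rose in SCR (median 0.05), 12 and 2 in the MAVS line (-0.08), 15 and 0 in the STING line (-0.17), and 31 and 0 in DKO (-0.43). Of all tested genes, 24.0% fell and 26.0% rose in SCR, and 16.3% and 17.1% in the MAVS line. The shares were 13.9% and 15.5% in the STING line, and 8.22% and 6.53% in DKO. The difference from SCR was below 0 for 23 and above for 1 of the 36 in DKO (14.5% and 13.5% of all tested genes). It was so for 9 and 1 in the STING line (9.55% and 9.97%) and for none in the MAVS line (4.52% and 2.92%). For the histone members, by contrast, it lay mostly above 0. MCM4, a subunit of the replicative helicase, rose in SCR (0.16), did not pass in the STING or MAVS line and fell in DKO (-0.51). The ribonucleotide reductase subunit RRM1 (-0.62 in SCR and -0.52 in DKO) and the nuclease EXO1 (-0.53 and -0.59) fell in all 4. Of 19 histone chaperone and assembly genes, 9 fell and 6 rose in SCR, 9 and 3 in the STING line, 7 and 2 in the MAVS line and 10 and 0 in DKO. The chaperones NAP1L1 (-0.75) and SSRP1 (-0.47), the CENP-A loader HJURP (-0.60) and RBBP4 (-0.45) fell in SCR and in the other 3 genotypes.

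Histone variants made outside the replication programme moved in both directions in SCR. Of 12 on the list, members of the H1 class included, 11 were tested, of which 6 fell and 2 rose in SCR (24.0% and 26.0% of all tested genes). The counts were 6 and 1 in the STING line (13.9% and 15.5%), 7 and 2 in the MAVS line (16.3% and 17.1%) and 6 and 0 in DKO (8.22% and 6.53%). CENPA, the centromeric H3, fell by 1.61 in SCR, 1.05 in the STING line, 1.28 in the MAVS line and 1.03 in DKO. H2AZ2, which encodes an H2A.Z protein, had 196 and 201 CPM in SCR DMSO and 86.0 and 83.8 CPM in SCR MPS1i, and fell by 1.23 in SCR, 0.78 in the MAVS line, 0.37 in the STING line and 0.28 in DKO. Its difference from SCR passed in all 3 lines (0.95 in DKO, 0.86 in the STING line and 0.45 in the MAVS line), as for the 13 members above. H2AZ1 fell by 0.64 in SCR and 0.52 in DKO, and its difference from SCR did not pass in any line. H3-3A fell by 0.48 in SCR and did not pass in DKO (-0.06). The genes named here are among the 6 that fell in SCR, and the 2 that rose there are not named.

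Carry-over of RNA without a poly(A) tail was followed with 16 such RNAs, of which 10 had a single row in the table and 7 were tested. None fell in any genotype (24.0%, 13.9%, 16.3% and 8.22% of all tested genes fell in SCR, the STING line, the MAVS line and DKO). In SCR 4 rose (26.0% of all tested genes) and in the MAVS line 2 (17.1%), with RN7SL1 at 0.79 and RN7SL2 at 0.91 in SCR. Their summed level was 10023 and 8581 CPM in SCR DMSO and 14288 and 12702 CPM in SCR MPS1i, and 10867 and 8339 CPM in DKO DMSO against 10510 and 11008 CPM in DKO MPS1i. It moved in the direction opposite to histone RNA in SCR and overlapped in DKO, and its part in the histone results was not tested.

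Across the 16 libraries, the genes with the pattern most like summed histone RNA were sought among the 10832 non-members that averaged 5 CPM or more. By Pearson correlation of log2(CPM + 1) they were TROAP (0.990), CIT (0.986), IQGAP3 (0.983), GTSE1 (0.980), TRIM16L (0.980), NCAPG2 (0.979), CCNB2 (0.979) and NDC1 (0.978). The 16 points share 8 groups and the same scaling, so these values describe a likeness of pattern only.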

How the data were processed

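RNA from 16 NCI-H1944 libraries in 8 groups of 2 was sequenced. The deposited values are raw read counts per gene made by the authors, with 1 column per library, and all columns matched a library by name. The submitters' processing notes name STAR and featureCounts, the build GRCh38/hg38, and for trimming Trimmomatic, cutadapt and Trim Galore. Versions, the strand setting and the treatment of reads that map to several places are not given in the sources used here, so counts of near-identical or overlapping genes may be shared or split.

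The whole table was fitted in R 4.3.3 with edgeR 4.0.16: filterByExpr (minimum count 10, minimum total 15), TMM normalization (factors 0.958 to 1.03), 1 mean per group over all 16 libraries (8 residual degrees of freedom), robust dispersions and the two-sided quasi-likelihood F-test. The 17950 genes tested hold at least 99.9% of the counts of each library. Each adjusted p is by the Benjamini-Hochberg method over all genes tested in 1 of 13 contrasts, and a gene was called under 0.05. Standard errors were derived from the fold change and its F statistic (size of the log2 change over root F). CPM use TMM-scaled totals. Near-identical copies were found by shared 50-base words in GENCODE 29 transcripts. DESeq2 1.42.0, other scalings, other filters, a replicate block and leaving out each library were alternatives. The analysis was tested on simulated counts.

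Values per library are given for the 2 members of each class with the highest mean CPM, the 3 members with the lowest and the 3 with the highest mean change, and up to 8 members with the smallest interaction p. Members that passed in no genotype are named, with the 8 other genes most like the summed members. Of each related list, up to 4 called genes with the smallest adjusted p are named. Members and lists were chosen with earlier results of these data known, so no test over a list was made. Single results for 1 member and for 1 gene of a related list, and the summed level without the former, are not reported here.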

Additional observations from a re-analysis of the deposited data

Results flagged for a closer look

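The tests of the difference between the MPS1i effect in a knockout line and that in SCR mark the results that differ between genotypes. The effect was above that in SCR for 26 members in the STING line (9.97% of all tested genes), 13 in the MAVS line (2.92%) and 33 in DKO (13.5%). It was below that in SCR for 1, 0 and 1 members (9.55%, 4.52% and 14.5% of all tested genes).

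Among the linker histones, the differences in log2 fold change were 0.99, 0.66 and 1.15 for H1-2 in the STING line, the MAVS line and DKO, 0.89, 0.54 and 1.04 for H1-5, 0.79, 0.54 and 1.15 for H1-1, and 0.93, 0.73 and 0.90 for H1-3. Among the core histones they were 1.15, 0.54 and 1.54 for H4C2, 1.18, 0.84 and 1.45 for H4C4, and 0.96, 0.71 and 1.26 for H2AC21, in the same order. H4C13 was marked in DKO (1.05) and in neither single line, with 19.9 and 18.5 CPM after MPS1i in DKO and at most 10.9 CPM in any other treated library.

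In the other direction, H4C14 differed from SCR by -0.68 in DKO. H4C14 shares nearly all of its 50-base words with H4C15, and the summed pair gave -0.76 in DKO.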

How the results depend on the processing

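Over the fits without 1 library, counts of members called after MPS1i ran from 52 to 53 in SCR (53 with all libraries), 43 to 51 in the STING line (52), 50 to 52 in the MAVS line (53) and 40 to 50 in DKO (52). Against SCR under DMSO they ran from 7 to 23 in the STING line (17), 0 to 7 in the MAVS line (3) and 17 to 27 in DKO (23). Against SCR under MPS1i they ran from 19 to 24 (27), 4 to 10 (9) and 31 to 33 (39). Differences from the SCR effect ran from 18 to 31 (27), 6 to 19 (13) and 28 to 38 (34). H4C5 in DKO against SCR under DMSO turned from -0.02 to 0.32 (adjusted p = 0.021) without the first SCR DMSO library, and was -0.29 (0.03) without the second.

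Without a filter on low counts, 30 members were called in the STING line against SCR under DMSO, 12 in the MAVS line, 19 in the MAVS line under MPS1i, and 20 for its difference from the SCR effect. For the MAVS line under DMSO, library totals as scaling gave 1 and the compared groups alone 8. Under MPS1i, DESeq2 gave 14 and the compared groups alone 20. The cause of these shifts was not tested, beyond the fewer libraries some of them use.

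Over all tested genes, calls after MPS1i in DKO went from 2648 to 1646 with the compared groups alone and ranged from 1418 to 3152 without 1 library, and those in the STING line ranged from 3403 to 4240 (5269). Against SCR they ranged from 913 to 1283 in the STING line under DMSO (1826), 344 to 759 in the MAVS line under DMSO (1177) and 1769 to 2035 under MPS1i (2859), and its difference from the SCR effect from 858 to 1087 (1336). With library totals as scaling, lower and higher calls against SCR were 656 and 1115 in the STING line under DMSO (982 and 844), 2489 and 3726 under MPS1i (3106 and 2843), 1166 and 2110 in the MAVS line under MPS1i (1520 and 1339), and 3140 and 5300 in DKO under MPS1i (4023 and 4064). For the difference of the MAVS line from the SCR effect they were 715 and 819 (812 and 524). The members were then 13 lower in the STING line under DMSO, 23 higher and 6 lower under MPS1i, 13 higher in the MAVS line and 31 higher and 9 lower in DKO.

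Same-numbered replicates did not deviate together (correlations from -0.085 to 0.138 over 28 pairs of groups, median 0.02). With the replicate block, 53, 52, 53 and 53 members were called after MPS1i in SCR, the STING line, the MAVS line and DKO, and no count of members moved by over 1.5 times. Summing pairs that share many of their words, chosen after seeing the data, gave 50 units that fell in each genotype, of 56.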
